A study of Caenorhabditis elegans with 24 samples.

Results

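Messenger RNA of 4-cell embryos was compared between the worm strains HC445 and N2 after the grandparents of the embryos had lived at 25 °C and their mothers at 20 °C. The comparison rests on the 3 HC445 arrays and the 3 N2 arrays that the labels put in these groups, 6 of 24 arrays in all, and each HC445 array was paired with the N2 array of the same replicate number. Each replicate number stood for 1 scan day, so a pair was scanned on the same day. Both strains shared every step of the temperature history, and all worms had been fed Bacillus subtilis, so the groups of this comparison differed by strain alone in their labels. N2 is the wild-type laboratory strain of Caenorhabditis elegans. The labels give HC445 the genotype sid-1(qt9); suspected haf-6(-), in which the loss of haf-6 is marked as suspected only.

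In this nematode, double-stranded RNA taken up by one tissue can silence the matching gene in other tissues and in the progeny, a process called systemic RNA interference. The gene sid-1 encodes a membrane channel that lets double-stranded RNA into cells, and haf-6 encodes a half-molecule ABC transporter linked to RNA interference in the germline. Most mRNA of a 4-cell embryo was made in the germline of its mother, so a difference between strains at this stage is read mainly in maternal transcripts.

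The wider study measured 8 groups of 3 samples. Each strain was sampled in generation 2, where mothers had lived at 20 °C or 25 °C, and in generation 3, where all mothers had lived at 20 °C and only the grandparents' temperature, 20 °C or 25 °C, differed. Each sample held 50 embryos, whose RNA was amplified and hybridised to 1 one-colour array with 15208 gene probes, 1 per gene. On the 6 arrays, 11026 to 12381 probes were well above background (9109 to 13075 on all 24), and 11637 probes were tested, those that in 1 or more groups clearly exceeded background on each of the 3 arrays. The arrays of replicate 3 of both strains lay on 1 slide, carried a spike-in note and had no 20 °C array beside them, and on the N2 one 1653 dim probes were tied at the lowest value. The number of arrays limits the precision of every value.

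The probes carry WormBase gene IDs, and neither the files nor the reference table given pairs these IDs with gene names. Of the 15208 IDs, 0 could be matched. The probes of sid-1 and haf-6 were therefore not identified here, the genotype in the label could not be checked against its own transcripts, and probes are given by ID with no role. For the same reason 17 lists of named genes (335 symbols, among them systemic RNA interference, Argonaute proteins, heat shock proteins and markers of other tissues) were not analysed here, and the 4-cell stage could not be checked against marker transcripts. Levels are log2 signals relative to the array's 75th percentile, and a difference of 1 on this scale is a 2-fold difference.

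With grandparents at 25 °C, HC445 embryos held far less of 2 transcripts than N2 embryos, WBGene00004795 and WBGene00001816, and no other gene passed the threshold. These 2 of 11637 genes were 0.0172% of those tested (limma with the replicate as a block, Benjamini-Hochberg adjusted p under 0.05), both were lower in HC445, and 0 were higher. At an unadjusted p under 0.05 there were 451 genes, 279 higher and 172 lower in HC445, where the threshold alone would give 581.85 of 11637. Since whole embryos were measured, fewer cells holding an mRNA and less of it per cell cannot be told apart. For 1 gene taken alone, 3 arrays against 3 cannot give an exact permutation p below 0.1. A limma fit of the 6 arrays alone called the same 2 genes and WBGene00011306, with adjusted p-values of 0.000209 for WBGene00004795 and 0.000383 for WBGene00001816.

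WBGene00004795 had log2 levels of -0.53, -0.98 and -1.22 on the N2 arrays of replicates 1, 2 and 3. On the HC445 arrays of the same replicates the levels were -6.04, -6.15 and -6.67. The strains did not overlap, and the gap between them was many times the spread of about 0.35 (SD, n = 3) within N2 or 0.34 (SD, n = 3) within HC445. The same-day differences, HC445 minus N2, were -5.51, -5.17 and -5.45, and the fitted difference was -5.38 ± 0.24 (SE; 95% interval -5.87 to -4.88; limma adjusted p = 1.58e-11), a 41.5-fold lower signal in HC445. The probe was well above background on all 24 arrays, so the HC445 signal did not lie at the background. Whether all of that signal came from this transcript was not tested.

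WBGene00001816 had log2 levels of -0.92, -1.07 and -1.24 on the N2 arrays. The HC445 levels were -4.71, -4.64 and -4.74, which lay closer together than those of N2, with SDs of 0.05 (n = 3) and 0.16 (n = 3). Again no HC445 array came near an N2 array. The same-day differences were -3.79, -3.57 and -3.50, and the fitted difference was -3.62 ± 0.22 (SE; 95% interval -4.08 to -3.16; limma adjusted p = 3.33e-09), a 12.29-fold lower signal. This probe too was well above background on all 24 arrays. For both probes the replicate 3 pair, which shared a slide, gave a difference close to those of the pairs on separate slides.

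Both transcripts were low in HC445 whatever the temperature history. Over the 12 N2 arrays of the study the level of WBGene00004795 ran from -2.202 to -0.31 (median -0.98), and over the 12 HC445 arrays from -6.98 to -4.92 (median -6.13). Over the same arrays WBGene00001816 ran from -1.31 to -0.59 (median -0.995) in N2 and from -5.19 to -3.62 (median -4.55) in HC445. The strains did not overlap for either probe, which ranked first and second by p in each of the 4 pairs of groups. The strain difference of WBGene00004795 was -5.31 with grandparents at 20 °C, -4.58 with mothers at 25 °C and -4.96 at 20 °C in generation 2. That of WBGene00001816 was -3.60, -2.78 and -3.91 in the same order.

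For these 2 transcripts no dependence of the strain difference on the grandparents' temperature was detected. For WBGene00004795 the 2 strain differences were apart by -0.06 (95% interval -0.77 to 0.64; limma unadjusted p = 0.855), and for WBGene00001816 by -0.02 (95% interval -0.67 to 0.63; limma unadjusted p = 0.946). Set against embryos of 25 °C mothers, the strain difference with grandparents at 25 °C minus that with mothers at 25 °C was -0.80 (95% interval -1.50 to -0.10) for WBGene00004795 and -0.84 (95% interval -1.49 to -0.19) for WBGene00001816. Their unadjusted p-values of 0.0279 and 0.0143 did not pass after adjustment over all genes (limma adjusted p = 1 for both).

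**Figure D1:**
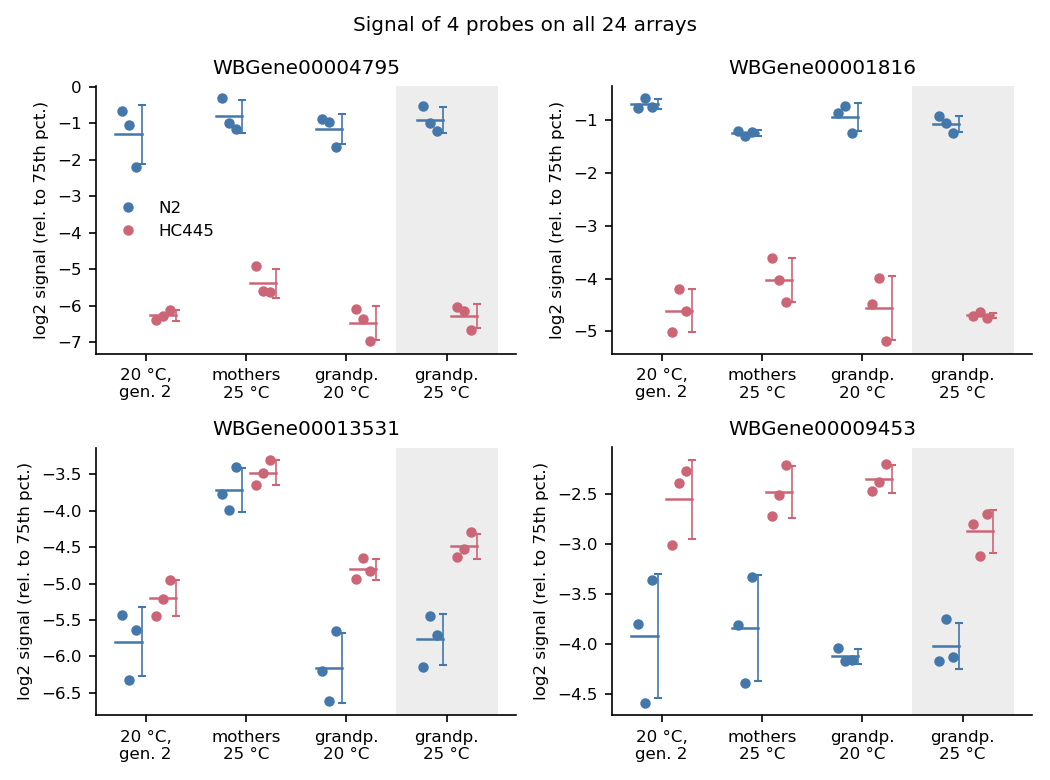
Log2 signal relative to the array's 75th percentile (y axis) of WBGene00004795, WBGene00001816, WBGene00013531 and WBGene00009453 on all 24 arrays, by ancestral temperature (x axis) and strain; points are arrays, horizontal lines group means and bars SDs (n = 3), and grandparents at 25 °C are shaded. HC445 lies below N2 without overlap in every pair of groups for the first 2 probes, and above N2 without overlap for WBGene00009453; each panel has its own y axis.

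No gene was called higher in HC445. The 2 upward differences with the smallest p are given here, chosen after their values were seen. WBGene00013531 had levels of -6.14, -5.45 and -5.71 in N2 and -4.63, -4.53 and -4.30 in HC445. The strains did not overlap, and the fitted difference was 1.28 ± 0.25 (SE; limma adjusted p = 0.111). WBGene00009453 had levels of -4.17, -3.75 and -4.13 in N2 and -2.80, -3.12 and -2.71 in HC445, with a fitted difference of 1.14 ± 0.25 (SE; limma adjusted p = 0.303). Here too every HC445 array lay above every N2 array. Picking by p favours such separation. It was found for 748 of all 11637 tested genes (6.43%), 453 of them higher in HC445.

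The same probes were set against the other groups. WBGene00009453 was higher in HC445 by 1.77 with grandparents at 20 °C (limma adjusted p = 0.00294), by 1.36 with mothers at 25 °C (limma adjusted p = 0.0295) and by 1.36 at 20 °C in generation 2 (limma adjusted p = 0.0286). Its 12 N2 arrays, from -4.59 to -3.33, lay below its 12 HC445 arrays, from -3.12 to -2.199. WBGene00013531 was higher in HC445 by 1.35 with grandparents at 20 °C (limma adjusted p = 0.0334), but its differences of 0.24 with mothers at 25 °C and 0.60 at 20 °C in generation 2 did not pass. The 6 arrays of 25 °C mothers, 3 of each strain, held its highest levels.

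Apart from the 2 called genes, abundant transcripts differed little between the strains, while dim ones had larger differences and larger errors. The differences of all 11637 genes had a median of 0.02 and an SD of 0.40 on the log2 scale, with quartiles of -0.13 and 0.17. Fitted differences beyond 2-fold were found for 402 genes (3.45%), 134 higher and 268 lower in HC445, and beyond 4-fold for 45, 11 higher and 34 lower. When the tested genes were put into 3 classes of 3879 by mean signal over all arrays, the low class held 366 of the 402, the middle class 36 and the high class 0. The median SE of a difference was 0.58 for low, 0.25 for middle and 0.11 for high levels.

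**Figure D2:**
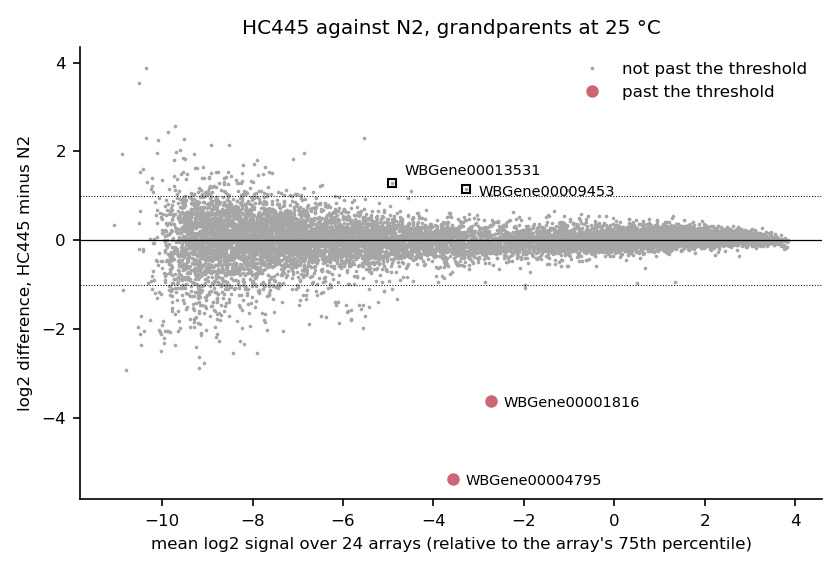
Log2 difference HC445 minus N2 with grandparents at 25 °C (y axis) against mean log2 signal over 24 arrays (x axis) for 11637 tested genes, 1 point each; dotted lines mark 2-fold, filled circles the 2 genes past the threshold and squares the 2 upward probes given by ID. The scatter narrows from left to right, and the 2 called genes lie far below the cloud at middle levels.

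Of the 402 genes beyond 2-fold, 185 had the same sign on all 3 scan days, against 3350 of all 11637 tested genes, and for 91 the 3 arrays of one strain lay all above the 3 of the other. Over all tested genes such a separation was found for 748 (6.43%), 453 of them higher and 295 lower in HC445. The 402 were picked by the size of these same differences, so higher shares of shared sign and of separation among them were built in. Only 108 of the 402 were well above background on all 6 arrays, whereas 10296 of all 11637 tested genes were. A value tied at an array's lowest signal entered 16 of the 402, 15 of which were higher in HC445. Of the 6 arrays only the N2 array of replicate 3 had such ties, so this direction was largely built in. Of the 402, 201 had the sign of the mean strain difference on the other 18 arrays, against 6350 of 11637 over all tested genes.

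The 95% interval of the strain difference lay within 2-fold either way for 7289 genes (62.64%), made up of 3867 high, 3034 middle and 388 low ones. It lay within 1.5-fold for 4987 genes (42.85%). For 1140 genes (9.796%), 1059 of them in the low class, the interval reached beyond 4-fold. It held 0 for 1044 of these, for which a difference of that size could not be told from none. It left out 0 for 96, of which only the 2 called genes passed after adjustment. The intervals are not adjusted for the number of genes, and over all tested genes 451 (3.876%) left out 0. Large fitted differences reach beyond 4-fold more readily, so leaving out 0 was partly built in among the 1140. Of the tested genes, 3 were well above background on all 3 HC445 arrays and on 0 N2 arrays, and 13 were so the other way round. The corresponding numbers were 35 and 11 with grandparents at 20 °C, 27 and 0 with mothers at 25 °C, and 4 and 25 at 20 °C in generation 2.

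The distance between arrays of different strains overlapped that between arrays of the same strain. Over all tested genes the SD of the log2 difference between 2 arrays was 0.688 to 0.876 for the 3 same-day pairs of HC445 and N2, and 0.723 to 1.02 for the 6 pairs of different strain and day. Within HC445 it was 0.708 to 0.874, and within N2 it was 0.737 to 1.01, with 3 pairs each. The strain differences of single days were correlated weakly or negatively. Across 11512 to 11559 genes, which are not independent replicates, the same-day differences of replicates 1 and 2 had a Pearson r of 0.01, those of replicates 1 and 3 an r of -0.36 and those of replicates 2 and 3 an r of 0.09. The sign was shared by 57.9%, 46.9% and 53.5% of genes. The 2 called genes stood out from this: when 1 replicate number was left out of the fit, the same 2 genes and no others were called each time, and the pair left out had the same sign for both.

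The next question was whether the strain difference itself depended on the grandparents' temperature. No gene passed the test of the difference between the strain difference with grandparents at 25 °C and that with grandparents at 20 °C in the same generation (0 of 11637, 0%; limma, 455 at an unadjusted p under 0.05, 288 of them shifted upward in HC445). The counts were also 0 (0%) against embryos of 25 °C mothers (limma, 357 at an unadjusted p under 0.05) and 0 (0%) against 20 °C in generation 2 (limma, 571). Against the latter 1 gene, WBGene00001119, passed when replicate 1 or the HC445 array of replicate 1 was left out. With slide as a fixed block each of these 3 tests gave calls. In that fit the N2 group with grandparents at 25 °C rested on its replicate 3 array, the only N2 array sharing a slide. The median SE of such a difference of differences was 0.36, larger than the 0.25 of a strain difference. These tests share the 6 arrays with grandparents at 25 °C, so their counts are not independent of each other.

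More genes were called between the strains in the other pairs of groups, which were 16 (0.137%) with grandparents at 20 °C, 11 (0.0945%) with mothers at 25 °C and 10 (0.0859%) at 20 °C in generation 2. Over the 4 pairs 24 genes were called at least once, and 2 were called in all 4, the same 2 as with grandparents at 25 °C. Whether the 4 counts differ was not tested. Besides these 2, there were 3 genes called in each of the other 3 pairs, WBGene00009453, WBGene00021349 and WBGene00019197, named here after their values were seen. WBGene00021349 had log2 differences of -1.75 with grandparents at 20 °C, -4.19 with mothers at 25 °C and -2.42 at 20 °C in generation 2. With grandparents at 25 °C its levels were -5.86, -5.17 and -5.32 in N2 and -7.14, -7.87 and -6.91 in HC445, without overlap, and its difference of -1.86 ± 0.34 (SE; limma adjusted p = 0.0923) fell just short. WBGene00019197 had a difference of -0.92 ± 0.34 (SE) with grandparents at 25 °C, where it did not pass, against -1.76, -1.84 and -2.43 in the other pairs.

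**Figure D3:**
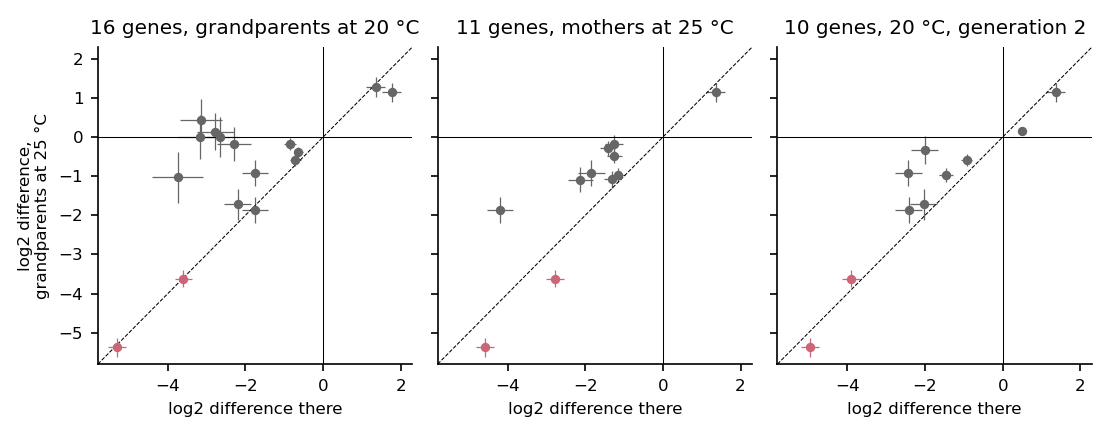
Log2 difference HC445 minus N2 with grandparents at 25 °C (y axis) against the same difference in another pair of groups (x axis), for the genes called in that pair: 16 with grandparents at 20 °C, 11 with mothers at 25 °C and 10 at 20 °C in generation 2. Bars are SEs, the dashed line marks equal differences, and red marks the 2 genes called in all pairs; several genes of the left panel lie near 0 on the y axis, while all genes of the other panels keep their sign.

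Genes called in another pair mostly kept their direction with grandparents at 25 °C. All 11 genes called with mothers at 25 °C had the same sign, where 54.2% of all tested genes did, and so had all 10 called at 20 °C in generation 2, against 48.5%. Of the 16 called with grandparents at 20 °C, 12 had the same sign, against 58.3%. Without the 2 genes called in every pair, the counts in the same order were 9 of 9, 8 of 8 and 10 of 14. The lists share genes, so these counts are not independent. Of the 14 from grandparents at 20 °C, 7 reached at least 0.5 of their size. Another 6, with differences of -3.17 to -0.85 after 20 °C, lay between -0.18 and 0.43 after 25 °C. Calls favour large values in the pair that gave the list, so smaller sizes elsewhere were partly built in. The smallest unadjusted p for a difference between the 2 pairs among these 14 was 0.000143, and its limma adjusted p was 1. The pairs shared no array, but they shared scan days and, in 1 fit, each gene's spread estimate. Over all 11637 genes the strain differences with grandparents at 25 °C correlated weakly with those of the other pairs, with a Pearson r of 0.04 for grandparents at 20 °C, 0.14 for mothers at 25 °C and 0.12 for 20 °C in generation 2. Genes are not independent replicates, and these values are a description only.

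The 18 arrays of the other 3 pairs gave a more precise list to set against the 6, a comparison chosen after the data were examined. On them 46 genes (0.395%) were called between the strains, 7 higher and 39 lower in HC445 (limma, adjusted p under 0.05). That list held 23 genes without the replicate block and 13 to 15 when 1 replicate number was left out. With grandparents at 25 °C, 42 of the 46 had the same sign, or 91.3%, where 54.6% of all tested genes did. Without the 2 genes called there, 40 of 44 had the same sign, 25 of 44 had it on all 3 scan days (17.6% of all tested genes) and 20 of 44 were at an unadjusted p under 0.05 (3.88% of all tested genes). The list and these p-values came from 1 limma fit that shares each gene's spread estimate. Calls favour genes of small estimated spread, so 3.88% is not a like baseline for the 20 of 44. The median size over the 44 was 0.73 on the 18 arrays and 0.50, in the same direction, on the 6, against 0.02 for all tested genes. Of the 44, 24 reached at least 0.5 of their size, 4 were larger and 18 lay within 0.25 of 0. The genes were picked for passing on the 18 arrays, which favours large values there. Smaller sizes on the 6 were therefore partly built in. No gene passed the test of its strain difference with grandparents at 25 °C against the mean of the other 3 pairs (0%; limma, 355 at an unadjusted p under 0.05).

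**Figure D4:**
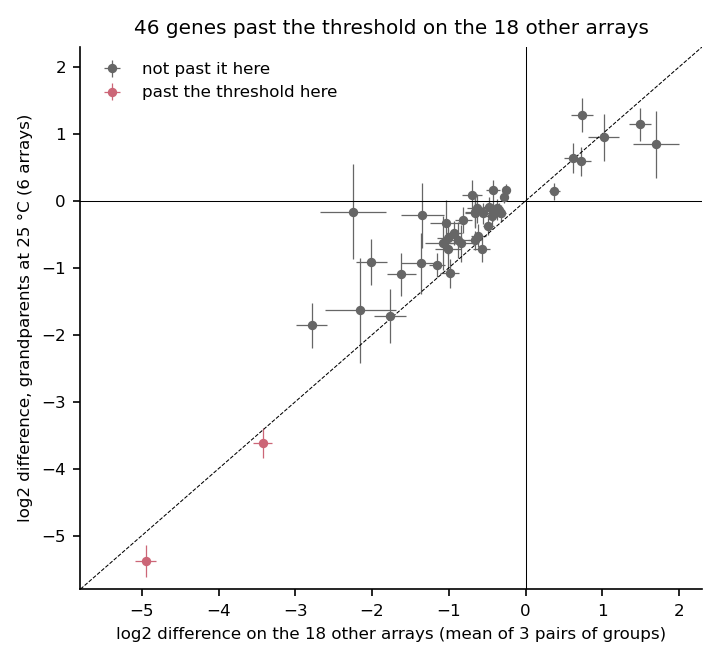
Log2 difference HC445 minus N2 on the 6 arrays with grandparents at 25 °C (y axis) against the mean of the other 3 pairs of groups on 18 arrays (x axis), for the 46 genes called on the 18. Bars are SEs and the dashed line marks equal differences; 42 of 46 points lie in the quadrants of equal sign, and the 2 genes past the threshold on both sides, in red, lie at the lower left.

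The count of 2 depended on how slides and arrays entered the fit. With array weights 7 genes passed, 2 higher and 5 lower. When each of the 14 slides was given its own fixed term, only 3 residual degrees of freedom remained, and many more genes passed. The N2 arrays of replicates 1 and 2 and the HC445 array of replicate 2 each lay alone on a slide. A fixed term absorbs such arrays, so the N2 group then rested on its replicate 3 array. The length of that list is therefore not read as a count of strain differences. WBGene00004795 and WBGene00001816 were among the calls under all 22 alternatives that were run.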

How the data were processed

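Per the labels' protocols, RNA of 50 embryos a sample was amplified by in vitro transcription and hybridised with Cy3 label to 24 arrays. Per the file headers, the authors extracted each spot's intensity with Agilent Feature Extraction 9.5.3.1 and subtracted and detrended the background. The same deposited files mark with 0 or 1 which spots were saturated, non-uniform or well above background. The deposited series table holds log2 values with a median of 9.03 in every column and a rank correlation of at least 0.9989 with the processed signal of its own array. The steps behind this table were not given in the sources used here.

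Here, control spots were left out, and non-uniform or outlier spots were set to missing (13 to 72 on the 6 arrays). Values were log2 processed signals relative to the array's 75th percentile. A model with 8 group means and the replicate as a block was fitted to all 24 arrays with limma 3.58.1 in R 4.3.3 (eBayes with trend; 14 residual degrees of freedom). Tests were two-sided at 0.05 after Benjamini-Hochberg adjustment over 11637 genes, and the fit was tested on simulated data. Each replicate number stands for 1 scan day of the file headers, and each of the 3 days held 1 array of each group. Deviations from the group means correlated by 0.04, 0.36 and 0.08 between same-numbered arrays of the 2 strains and by -0.26 to 0.16 between the others. The design calls the samples separately collected, but whether cultures were separate is not stated, and p-values cover only the spread between samples. The highest correlation between any 2 of the 24 arrays was 0.991.

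The groups, lists and tests were chosen with earlier results of these data known. The rule for named genes (the 2 largest called differences per direction) gave 2 falls and no rises, so 2 rises short of the threshold, the other genes given by ID and the comparison with the 18 other arrays were chosen after their values were seen. Alternatives were normexp (offset 50, on median spot intensities) with quantile normalization, quantile normalization alone, testing every probe or only the 8391 measured above background on all arrays, no replicate block, slide as a random or fixed block, the 6 arrays or the 12 of generation 3 alone, array weights, no spike-noted arrays, the deposited values, floor values set to missing (added after the data were seen) and leaving out each replicate number or array. Figures were drawn with matplotlib 3.10.9.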

Additional observations from a re-analysis of the deposited data

Results flagged for a closer look

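In 3 genes the same-day strain differences all had one sign with grandparents at 25 °C and all the opposite sign in another pair of groups. For each of the 3 other pairs, the gene with the smallest p for the difference between the strain differences was picked in each direction. This was done after the values were seen. Such a pick favours opposite signs, so these were partly built in. Only probes well above background on at least 2 arrays of each of the 4 groups entered. WBGene00021349, WBGene00019009 and WBGene00021088 were picked too but lacked opposite signs on all days, and are not described here. None passed the limma test of the difference, which was adjusted over all genes. Such opposite signs on all days were found for 248 tested genes (2.13%) against grandparents at 20 °C, 351 (3.02%) against mothers at 25 °C and 357 (3.07%) against 20 °C in generation 2. The same sign on all days of both pairs was found for 933 (8.02%), 600 (5.16%) and 333 (2.86%).

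WBGene00000670 differed between strains by 0.43 ± 0.54 (SE) with grandparents at 25 °C (same-day differences 0.12 to 0.62) and by -3.15 ± 0.54 (SE) with grandparents at 20 °C (same-day differences -4.28 to -1.17). The difference of the differences was 3.58 ± 0.76 (SE; limma unadjusted p = 0.000143, adjusted p = 1). Its N2 arrays with grandparents at 20 °C, at -5.35 ± 1.15 (SD, n = 3), stood above the other 3 N2 groups, whose means lay at -7.46, -7.55 and -8.48.

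WBGene00016110 had a strain difference of -1.18 with grandparents at 25 °C and 1.05 with grandparents at 20 °C, a difference of -2.23 ± 0.69 (SE; limma unadjusted p = 0.00441, adjusted p = 1). Its same-day differences with grandparents at 25 °C were -1.81, -0.11 and -1.61, so the sign of replicate 2 rests on a small value.

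WBGene00001119 had a strain difference of 2.304 ± 0.57 (SE) with grandparents at 25 °C and of -1.90 at 20 °C in generation 2, a difference of 4.20 ± 0.81 (SE; limma unadjusted p = 4.63e-05, adjusted p = 0.538). The same-day differences with grandparents at 25 °C were 1.12, 4.04 and 1.75. The HC445 array of replicate 1 stood at -7.12, against -3.36 and -3.73 on the other HC445 arrays. The N2 arrays stood at -8.24, -7.40 and -5.48, so the strains overlapped. At 20 °C in generation 2 the N2 mean of -3.75 ± 0.93 (SD, n = 3) lay above those of the other N2 groups, at -6.56, -6.06 and -7.04. Without the HC445 array of replicate 1 this gene was called both in the strain comparison with grandparents at 25 °C and in the difference from generation 2.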

How the results depend on the processing

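The strain comparison with grandparents at 25 °C gave 2 to 3 calls in 20 of 22 alternatives, 71 with slide as a fixed block and 7 with array weights. The count with slide as a fixed block is not read as a count of strain differences, since single arrays on a slide are absorbed there. Leaving out a replicate number or 1 of the 6 arrays gave 2 to 3 calls. The third call was WBGene00011306 with either quantile setting, with the deposited values and with the 6 arrays alone, WBGene00021349 with the 8391 probes measured above background on all arrays, and WBGene00001119 without the HC445 array of replicate 1. The difference of WBGene00004795 ran from -5.48 to -4.99 and that of WBGene00001816 from -3.71 to -3.42. WBGene00013531 (1.13 to 1.55) and WBGene00009453 (0.95 to 1.58) passed with array weights only (limma adjusted p = 0.0288 and 0.0439). For the difference from grandparents at 20 °C, mothers at 25 °C and 20 °C in generation 2, the fixed slide block gave calls each time. Leaving out arrays gave 0 to 0, 0 to 0 and 0 to 1. Without the replicate block the strain comparison gave the same 2 calls and the 3 differences gave 0 each, so the pairing changed no call there. Of the genes called on the 18 other arrays, 91.3% had the same sign. These were 42 of 46 genes, but the list itself changed in length. The share was 100% of 23 genes without the replicate block and of 28 with normexp and quantile normalization, and 83% of 47 with array weights. It was 88.9% to 100% when arrays were left out, of 13 to 15 genes without 1 replicate number and of 42 to 50 without 1 array. With spike-noted arrays left out it was 93.3% of 15. The cause of these shifts was not tested, except that a fixed slide block leaves 3 residual degrees of freedom and absorbs each array that lies alone on a slide. Fits of the 6 or 12 arrays alone cannot give every difference between pairs, and the same-sign share was not computed with slide as a fixed block. Low signal limits what can be seen: the median SE was 0.58 in the low class against 0.11 in the high class.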
